A study of Mus musculus with 12 samples.

Results

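Kinetochore and spindle checkpoint genes were followed through the cycle of the seminiferous epithelium in 12 adult mouse testis samples, measured on Affymetrix GeneChip Mouse Gene ST 1.0 arrays. A list of 37 genes was examined, all with a place in the centromere, the kinetochore or the spindle checkpoint. Of these, 36 had a probe set with a single gene symbol, out of 19946 genes measured in this way. The remaining one, Hjurp, which loads the centromeric histone, has its probe set annotated to several genes and was not analysed here. Each of the 36 genes was read by 1 probe set. None lay among the dimmest 30% of genes (0 of 36). This list and the other gene lists used below were chosen with earlier results of these data known. Their shares, set below against all genes, are therefore descriptions of the lists only.

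All samples came from males of a mixed background 129/C57BL6 strain, and all had been treated alike. WIN 18,446, an inhibitor of retinoic acid synthesis, was given at 100 ug per g each day for 7 days, from 2 to 8 days postpartum. At 9 days postpartum 200 ug of retinoic acid was injected, and testes were taken after a recovery of 43 to 49 days, a treatment meant to bring the tubules of a testis near each other in the cycle. Groups were assigned by testis morphology to stages XII-I, II-IV and IV-VI, then VII, and last VIII-IX and IX-XI, with 2 samples each. No untreated or unsynchronized testis is among these samples, and nothing in the labels states that samples of a group are separate animals. The p-values therefore cover only the variation among these arrays, part of which may be technical.

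The kinetochore is the protein assembly that joins a chromosome to spindle microtubules. An inner network of CENP proteins sits on nucleosomes that hold the histone variant CENP-A, an outer network with the NDC80 complex at its end binds the microtubule, and checkpoint kinases and MAD and BUB proteins delay anaphase until every kinetochore is attached. In the testis the same parts serve the mitoses of spermatogonia and both meiotic divisions of spermatocytes, and in the textbook description of the mouse cycle the meiotic divisions fall in stage XII. The comparisons asked at which stages transcripts of these parts were high or low.

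Levels are log2 of the deposited array intensity, and a difference of 1 is a 2-fold change. Levels of different probe sets cannot be set against each other, so each gene is compared only with itself. Whole testis RNA was measured, so fewer cells of a type and less RNA per cell cannot be told apart. Array medians lay between 296.9 and 309.1 intensity units. Across genes, the 2 arrays of a group correlated at 0.987 to 0.995, and for 9 of 12 arrays the nearest array belonged to another group. The closest such neighbours were XII-I sample 2 with II-IV sample 2 (0.998) and II-IV sample 1 with IV-VI sample 2 (0.998). These are correlations across genes, which are not independent of each other.

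The promoters of 4 members are shown because their transcripts moved differently over the cycle: Cenpe, Cenpf and Ttk were higher in XII-I and Mad2l1 was lower there. Each sequence runs 5′ to 3′ on the gene's own strand (GRCm38.p6). It covers 150 bases before the start that its promoter window is set on and 30 bases after it. This start is the gene start of the RefSeq table for Cenpe and Mad2l1. The RefSeq gene start lies further upstream for Cenpf (189688107) and Ttk (83834651). Capitals mark TTTGAA, the cell cycle homology region, and CCAAT, the box bound by NF-Y, read on either strand.
Cenpe, chr3:135212413-135212592, plus strand: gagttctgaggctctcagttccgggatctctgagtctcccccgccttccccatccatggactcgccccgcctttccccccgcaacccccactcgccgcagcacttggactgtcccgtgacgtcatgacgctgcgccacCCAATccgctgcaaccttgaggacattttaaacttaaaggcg
Cenpf, chr1:189688057-189688236, minus strand: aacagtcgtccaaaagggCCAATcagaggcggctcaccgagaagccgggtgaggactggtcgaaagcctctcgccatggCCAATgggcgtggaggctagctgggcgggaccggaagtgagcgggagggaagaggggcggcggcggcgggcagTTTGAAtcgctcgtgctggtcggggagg
Ttk, chr9:83834539-83834718, plus strand: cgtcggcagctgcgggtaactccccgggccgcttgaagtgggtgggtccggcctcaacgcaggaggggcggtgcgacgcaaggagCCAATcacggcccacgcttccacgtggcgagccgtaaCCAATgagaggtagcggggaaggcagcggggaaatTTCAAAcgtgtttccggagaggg
Mad2l1, chr6:66535071-66535250, plus strand: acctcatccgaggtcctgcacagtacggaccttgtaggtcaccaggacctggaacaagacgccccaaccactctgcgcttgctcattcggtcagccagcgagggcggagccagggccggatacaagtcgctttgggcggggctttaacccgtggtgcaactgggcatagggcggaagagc

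In these stretches Cenpf and Ttk held 2 CCAAT boxes and 1 TTTGAA each, Cenpe held 1 CCAAT box and 0 TTTGAA, and Mad2l1 held neither. Nuf2 and Ndc80, which were also higher in XII-I and are not shown, held neither in the same stretch. A promoter window of 250 bases before and 50 after the start was at hand for 33 of the 37 listed genes, and the first window was used for the 3 genes with more than 1. Within that window, TTTGAA was found in 14 of 33 listed genes (42.4%), against 15.2% of the windows of 15614 measured genes. CCAAT was found in 22 of 33 (66.7%, against 38.2%), TTCCCGC, an E2F core, in 8 of 33 (24.2%, against 6.5%), and AACGG, a MYB core, in 10 of 33 (30.3%, against 19.7%). Both strands were searched for each motif, and TTTGAA and CCAAT can share bases at their ends. TTTGAA stood in 5 of the 7 windows of genes higher in XII-I. It stood in 5 of 12 windows of genes past the test over the 6 groups and in 8 of 20 windows of genes not past it. CCAAT stood in 5 of the 7, in 8 of the 12 and in 13 of the 20. In the same order, TTCCCGC stood in 1, 1 and 7 windows, and AACGG in 2, 5 and 4. These counts describe the letters in the windows and were not tested.

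Over the whole cycle, 12 of the 36 kinetochore and checkpoint genes (33.3%) differed among the 6 groups in limma's moderated F test at an adjusted p under 0.05, against 19.9% of all 19946 genes. They were Cenpa of the centromeric histone, Cenpi, Cenpk, Cenpl and Cenpp of the inner network, Ndc80, Nuf2 and Zwint of the outer kinetochore, Mad1l1 and Ttk of the checkpoint, and the corona proteins Cenpe and Cenpf. Of these 12, 6 had their highest mean in XII-I, 3 in II-IV, 2 in IV-VI and 1 in IX-XI. The lowest mean fell in VII for 5, in VIII-IX for 4, in IX-XI for 2 and in II-IV for 1. Their ranges over the group means ran from 1.39-fold in Zwint to 3.66-fold in Cenpe. The other 24 genes ranged from 1.14-fold to 2.46-fold. The median range of all 36 was 1.48-fold, against 1.27-fold over all genes, and 8 ranged at least 2-fold (9.37% of all genes did). The shares over all genes include dim genes, while no member lay among the dimmest 30%. Without those dim genes 14 of the 36 passed the F test, against 29.6% of 13962 genes.

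Of all 36 genes, 13 had their highest mean in XII-I (22.6% of all genes did), 4 in II-IV (10.3%), 5 in IV-VI (12.8%), 2 in VII (12.9%), 7 in VIII-IX (14%) and 5 in IX-XI (27.3%). The lowest mean was in XII-I for 8 (16.1%), in II-IV for 6 (11.4%), in IV-VI for 2 (16.9%), in VII for 8 (22.1%), in VIII-IX for 5 (23.3%) and in IX-XI for 7 (10.2%). A stricter description asks that both samples of a group lie beyond the other 10. Both XII-I samples were above in Nuf2, Cenpe and Cenpf (6.42% of all genes) and below in Spc24 and Mad2l1 (2.59%). In Spc24 the gap was slight, 8.284 on XII-I sample 1 against 8.285 on II-IV sample 2. Both VII samples were below in Cenpm, Ndc80 and Cenpf (3.83%). Both IX-XI samples were above in Spc24 (5.08%) and below in Cenpn and Cenpp (2.34%). One gene each stood above in II-IV (Bub1, 1.02%), IV-VI (Cenpi, 2.22%) and VIII-IX (Cenpc1, 2.55%). No member was below in II-IV (0.842%), IV-VI (2.63%) or VIII-IX (4.14%), or above in VII (1.17%).

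Without single arrays the count of 12 was 7 without XII-I sample 1, 5 without either IV-VI array, VII sample 2 or IX-XI sample 2, and 4 if IX-XI sample 1 was left out. In the same fits the share over all genes was 14.3% without XII-I sample 1 and between 7.74% and 9.94% without any of the other 5 arrays. Of the 12 leave-outs, Cenpe passed in 12, Cenpf, Cenpk and Cenpp in 10 each, Nuf2 and Ttk in 8 each, Cenpi, Mad1l1 and Ndc80 in 6 each, Cenpl in 5, and Cenpa and Zwint in 1 each.

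**Figure D1:**
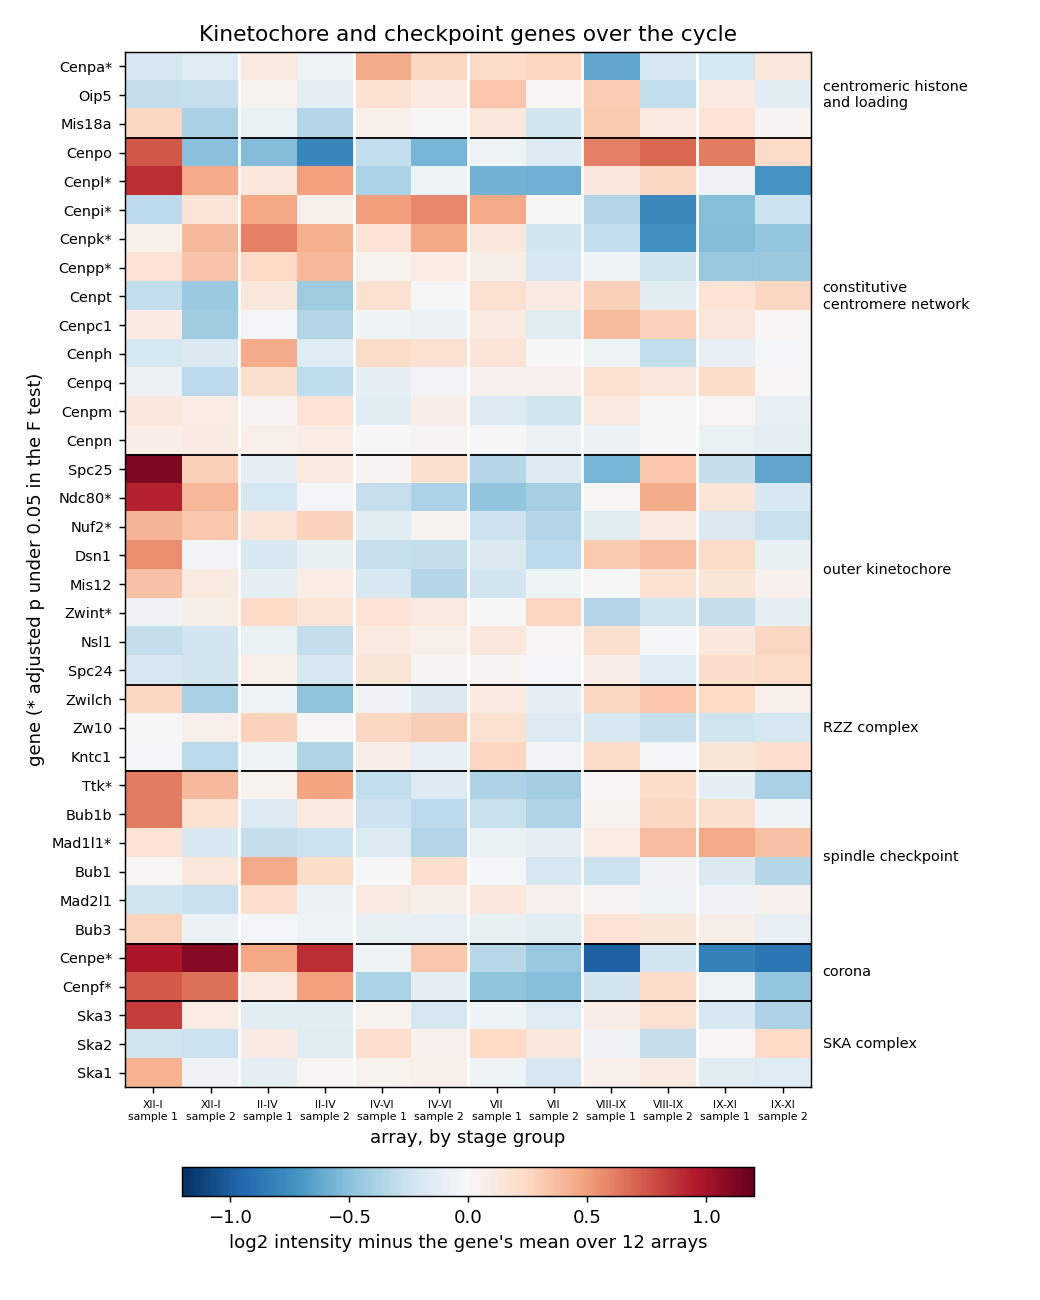
Levels of the 36 kinetochore and checkpoint genes on the 12 arrays, as log2 intensity minus the gene's own mean over the arrays (red above, blue below). Columns follow the stage groups, rows are grouped by role and ordered by range, and stars mark the 12 genes past the F test; the red block at the left is XII-I, where Cenpe, Cenpf, Ttk, Ndc80 and Cenpl were highest, and rows such as Nsl1 and Mad2l1 run blue there.

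The corona, the fibrous outermost layer of an unattached kinetochore, had 2 of 2 members past the F test, and Cenpe had the widest range of the 36 genes. Cenpe, a kinesin that carries chromosomes toward the spindle equator, read 10.91 and 11.03 in XII-I, 10.40 and 10.82 in II-IV, 9.87 and 10.26 in IV-VI, 9.60 and 9.48 in VII, 8.95 and 9.71 in VIII-IX, and 9.12 and 9.07 in IX-XI. Its group mean was lower at each step from XII-I to IX-XI, and both XII-I samples lay above the other 10. Cenpe averaged 10.97 ± 0.09 in XII-I and 9.10 ± 0.04 in IX-XI (SD, n = 2 each), a difference of 1.87 ± 0.24 log2 (SE) or 3.66-fold (adjusted p = 0.0077 in limma). Against the mean of the other 5 groups Cenpe rose in XII-I by 1.24 ± 0.18 log2 (2.36-fold, adjusted p = 0.021), and it fell by 1.01 log2 in IX-XI (adjusted p = 0.025) and by 0.72 log2 in VIII-IX (adjusted p = 0.045).

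Cenpf, a large coiled-coil protein that binds dynein partners and microtubules at the corona, read 11.03 and 10.96 in XII-I, 10.41 and 10.79 in II-IV, 9.92 and 10.19 in IV-VI, 9.81 and 9.78 in VII, 10.06 and 10.51 in VIII-IX, and 10.23 and 9.83 in IX-XI. Both XII-I samples again lay above all others and both VII samples below all others. Unlike Cenpe, its lowest mean was in VII, 2.30-fold under XII-I, and VIII-IX lay above VII by 0.49 log2, which did not pass. Cenpf rose in XII-I by 0.84 ± 0.15 log2 against the other groups (adjusted p = 0.022) and by 0.96 ± 0.19 log2 against IX-XI (adjusted p = 0.017).

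The spindle checkpoint is the set of kinases and adaptors that senses unattached kinetochores. Of its 6 members, 2 passed the F test, 2 rose in XII-I and 1 fell there. Ttk, the MPS1 kinase that starts checkpoint signalling, read 10.62 and 10.40 in XII-I, 10.05 and 10.48 in II-IV, 9.71 and 9.84 in IV-VI, 9.63 and 9.60 in VII, 10.02 and 10.23 in VIII-IX, and 9.89 and 9.62 in IX-XI. II-IV sample 2 lay above the lower XII-I sample, and the IV-VI and VII samples were lowest together with IX-XI sample 2. Ttk rose in XII-I by 0.60 ± 0.12 log2 against the other groups (1.52-fold, adjusted p = 0.024 in limma) and by 0.76 log2 against IX-XI (adjusted p = 0.020).

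Bub1b, which encodes BUBR1, a part of the complex that inhibits the anaphase-promoting complex, read 11.00 and 10.55 in XII-I, 10.21 and 10.49 in II-IV, 10.12 and 10.06 in IV-VI, 10.11 and 10.01 in VII, 10.41 and 10.62 in VIII-IX, and 10.57 and 10.32 in IX-XI. XII-I sample 1 was the highest array, and XII-I sample 2 lay within the range of VIII-IX and IX-XI. Bub1b rose in XII-I by 0.48 ± 0.13 log2 (adjusted p = 0.043), while its F test did not pass (adjusted p = 0.058). Its XII-I call was kept in 4 of 12 leave-outs.

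Mad2l1 and Mad1l1, partners in the template that converts MAD2 to its inhibitory form, followed other courses. Mad2l1 read 10.02 and 9.98 in XII-I, 10.46 and 10.18 in II-IV, 10.36 and 10.32 in IV-VI, 10.38 and 10.30 in VII, 10.28 and 10.20 in VIII-IX, and 10.20 and 10.31 in IX-XI. Both XII-I samples lay below the other 10, and the other groups overlapped. Mad2l1 fell by 0.30 log2 in XII-I (SE 0.08, 1.23-fold, adjusted p = 0.046), a call kept in 2 of 12 leave-outs, and its F test did not pass (adjusted p = 0.16).

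Mad1l1 read 9.82 and 9.47 in XII-I, 9.37 and 9.39 in II-IV, 9.49 and 9.30 in IV-VI, 9.57 and 9.55 in VII, 9.74 and 10.02 in VIII-IX, and 10.10 and 10.01 in IX-XI. Its group mean was higher at each step from II-IV to IX-XI, with XII-I in between and its samples apart. Mad1l1 rose in IX-XI by 0.48 ± 0.11 log2 against the other groups (adjusted p = 0.041 in limma). That call was lost in 8 of 12 leave-outs, those of either II-IV, VII or IX-XI sample, IV-VI sample 2 and VIII-IX sample 1.

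Bub1 and Bub3 did not pass. Bub1, a kinase that marks centromeric histone H2A, had both II-IV samples, at 11.74 and 11.49, above the other 10, the highest of which read 11.48 (F test adjusted p = 0.057; II-IV against the other groups 0.41 log2, not past the threshold). Such a lead of both II-IV samples was seen in 1.02% of all genes. Bub3, the adaptor that brings BUB kinases to the kinetochore, ranged 1.21-fold.

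In the outer kinetochore, the NDC80 complex has 4 subunits, and these did not share 1 course. Ndc80, its microtubule-binding subunit, read 10.14 and 9.62 in XII-I, 9.01 and 9.20 in II-IV, 8.94 and 8.83 in IV-VI, 8.74 and 8.82 in VII, 9.22 and 9.66 in VIII-IX, and 9.37 and 9.03 in IX-XI. Both VII samples were the lowest, and VIII-IX sample 2 lay just above XII-I sample 2. Ndc80 rose in XII-I by 0.80 ± 0.15 log2 against the other groups (1.74-fold, adjusted p = 0.023), a call kept in 11 of 12 leave-outs.

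Nuf2, the partner of Ndc80 in the same rod, read 11.01 and 10.93 in XII-I, 10.76 and 10.88 in II-IV, 10.48 and 10.65 in IV-VI, 10.36 and 10.26 in VII, 10.45 and 10.72 in VIII-IX, and 10.43 and 10.33 in IX-XI. Both XII-I samples lay above all others. It rose in XII-I by 0.44 ± 0.09 log2 against the other groups (adjusted p = 0.023) and by 0.59 log2 against IX-XI (adjusted p = 0.015).

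Spc25, which with Spc24 ties the rod to the inner kinetochore, read 9.95 and 9.12 in XII-I, 8.71 and 8.95 in II-IV, 8.86 and 9.02 in IV-VI, 8.49 and 8.66 in VII, 8.27 and 9.16 in VIII-IX, and 8.54 and 8.20 in IX-XI. XII-I sample 1 stood above every other array, while XII-I sample 2 lay below VIII-IX sample 2. Spc25 was 1.16 ± 0.31 log2 higher in XII-I than in IX-XI (2.24-fold, adjusted p = 0.044), but its F test did not pass (adjusted p = 0.15), nor did XII-I against the other groups, at 0.85 ± 0.24 log2.

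Spc24 went the other way at the same step. It read 8.28 and 8.26 in XII-I, 8.54 and 8.28 in II-IV, 8.63 and 8.51 in IV-VI, 8.51 and 8.46 in VII, 8.55 and 8.33 in VIII-IX, and 8.69 and 8.71 in IX-XI. Both IX-XI samples lay above all others. Both XII-I samples lay below all others, but barely: XII-I sample 1 read 8.284 and II-IV sample 2 read 8.285. Spc24 fell by 0.43 log2 in XII-I relative to IX-XI (adjusted p = 0.038 in limma). Its difference from the other 5 groups in XII-I, -0.25 ± 0.09 log2, did not pass.

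The MIS12 complex, which links the inner network to NDC80, gave 3 members, Dsn1, Mis12 and Nsl1. Nsl1 read 8.04 and 8.09 in XII-I, 8.25 and 8.04 in II-IV, 8.44 and 8.39 in IV-VI, 8.45 and 8.34 in VII, 8.52 and 8.31 in VIII-IX, and 8.46 and 8.58 in IX-XI. XII-I and II-IV sample 2 held its 3 lowest arrays. Nsl1 fell by 0.31 log2 in XII-I against the other groups (SE 0.08, adjusted p = 0.043), kept in 2 of 12 leave-outs, and by 0.45 log2 against IX-XI (adjusted p = 0.028). Dsn1 and Mis12 differed from the other groups in XII-I by 0.31 ± 0.14 and 0.28 ± 0.09 log2 and passed neither that test nor the F test.

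Zwint, which connects the outer network to the ROD, ZW10 and Zwilch complex, read 10.76 and 10.87 in XII-I, 11.04 and 10.95 in II-IV, 10.97 and 10.92 in IV-VI, 10.80 and 11.06 in VII, 10.45 and 10.58 in VIII-IX, and 10.51 and 10.68 in IX-XI. All 4 arrays of VIII-IX and IX-XI lay below the other 8. Zwint fell by 0.34 log2 in VIII-IX against the other groups (SE 0.09, adjusted p = 0.044).

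The complex of Zw10, Zwilch and Kntc1, which recruits dynein and MAD proteins, had 0 of 3 members past the F test. Zwilch, with the widest range of the 3, read 10.49 and 9.86 in XII-I, 10.19 and 9.76 in II-IV, 10.21 and 10.08 in IV-VI, 10.37 and 10.14 in VII, 10.49 and 10.57 in VIII-IX, and 10.48 and 10.31 in IX-XI (adjusted p = 0.38 in limma). The XII-I samples by themselves spanned most of the range of the gene. Zw10 had its highest mean in IV-VI and its lowest in VIII-IX (1.42-fold, adjusted p = 0.067), and Kntc1 ranged 1.30-fold (adjusted p = 0.32).

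**Figure D2:**
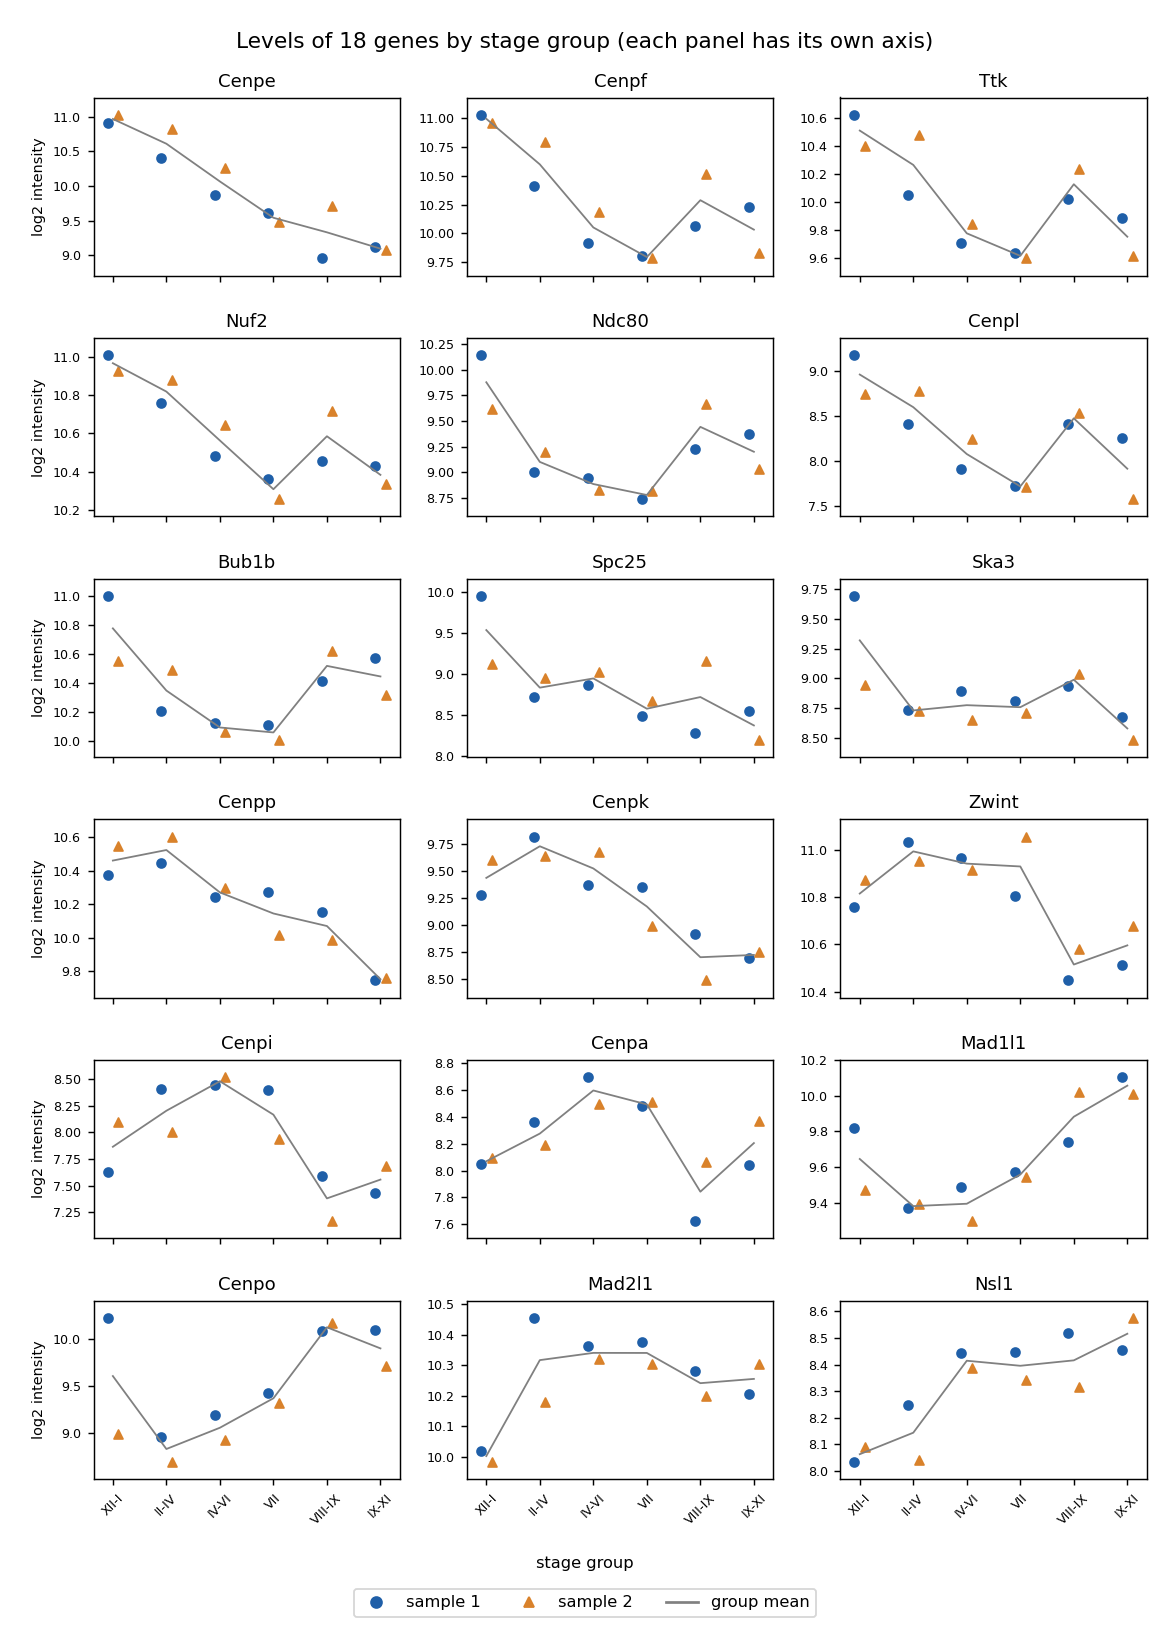
Log2 intensity of 18 genes in the 6 stage groups, with sample 1 as circles, sample 2 as triangles and a grey line through the group means; each panel has its own vertical axis. The group mean of Cenpe is lower at each step, Cenpf, Ttk, Nuf2, Ndc80 and Cenpl dip in VII, Cenpk, Cenpi and Zwint are low in VIII-IX and IX-XI, and Mad1l1 and Cenpo are high there.

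The inner network is built of CENP proteins that stay at centromeres through the cell cycle. Of its 11 members, 4 passed the F test, and they showed 3 courses. Cenpl, of the pair that recognizes CENP-A nucleosomes, read 9.18 and 8.75 in XII-I, 8.42 and 8.78 in II-IV, 7.91 and 8.24 in IV-VI, 7.72 and 7.71 in VII, 8.42 and 8.54 in VIII-IX, and 8.25 and 7.58 in IX-XI. XII-I sample 1 was highest, XII-I sample 2 lay just under II-IV sample 2, and VII and IX-XI sample 2 were lowest. Cenpl rose in XII-I by 0.81 ± 0.18 log2 against the other groups (1.75-fold, adjusted p = 0.029) and by 1.05 ± 0.23 log2 against IX-XI (adjusted p = 0.024). Its partner in the pair, Cenpn, ranged 1.14-fold over the cycle and did not pass (adjusted p = 0.35).

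Cenpp and Cenpk were highest in II-IV and low at the end of the cycle. Cenpp read 10.37 and 10.55 in XII-I, 10.44 and 10.60 in II-IV, 10.25 and 10.30 in IV-VI, 10.28 and 10.01 in VII, 10.15 and 9.99 in VIII-IX, and 9.75 and 9.76 in IX-XI. Both IX-XI samples lay below the other 10, and Cenpp fell there by 0.54 log2 against the other groups (SE 0.09, adjusted p = 0.022 in limma). Relative to IX-XI it was higher in XII-I by 0.71 ± 0.12 log2 (adjusted p = 0.010).

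Cenpk read 9.27 and 9.60 in XII-I, 9.82 and 9.64 in II-IV, 9.37 and 9.67 in IV-VI, 9.35 and 8.99 in VII, 8.91 and 8.49 in VIII-IX, and 8.69 and 8.75 in IX-XI. The 4 arrays of VIII-IX and IX-XI were its 4 lowest. It fell by 0.62 log2 in VIII-IX against the other groups (SE 0.14, 1.53-fold, adjusted p = 0.036), and it was higher in XII-I than in IX-XI by 0.71 log2 (adjusted p = 0.039).

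Cenpi, which joins Cenph and Cenpk in 1 subcomplex, was the only one of the 36 genes on the X chromosome, a chromosome that is silenced in pachytene spermatocytes. It read 7.63 and 8.10 in XII-I, 8.41 and 8.00 in II-IV, 8.44 and 8.52 in IV-VI, 8.40 and 7.94 in VII, 7.59 and 7.17 in VIII-IX, and 7.43 and 7.68 in IX-XI. Both IV-VI samples lay above the other 10 (2.22% of all genes), and Cenpi fell by 0.67 log2 in VIII-IX (SE 0.17, adjusted p = 0.048). Cenph, of the same subcomplex, ranged 1.32-fold and did not pass (adjusted p = 0.35).

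Cenpo, the network member with the widest range, read 10.23 and 8.99 in XII-I, 8.96 and 8.70 in II-IV, 9.19 and 8.92 in IV-VI, 9.42 and 9.32 in VII, 10.09 and 10.17 in VIII-IX, and 10.10 and 9.71 in IX-XI. The group mean of VIII-IX was 2.46-fold that of II-IV, but the XII-I samples lay 1 at the top and 1 near the bottom, and the F test did not pass (adjusted p = 0.079). It passed without either XII-I sample. The other 6 members not past the F test, Cenpc1, Cenph, Cenpm, Cenpn, Cenpq and Cenpt, ranged from 1.14-fold in Cenpn to 1.49-fold in Cenpt.

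The centromeric histone and its loading factors gave 1 call among 3 members. Cenpa, the histone variant that marks centromeres, read 8.05 and 8.09 in XII-I, 8.36 and 8.19 in II-IV, 8.70 and 8.50 in IV-VI, 8.48 and 8.51 in VII, 7.63 and 8.06 in VIII-IX, and 8.04 and 8.37 in IX-XI. Its 4 highest arrays were those of IV-VI and VII. Cenpa fell by 0.49 log2 in VIII-IX against the other groups (SE 0.12, adjusted p = 0.045), and its F test passed narrowly (adjusted p = 0.049). Mis18a and Oip5, of the complex that licenses CENP-A loading, ranged 1.34-fold and 1.37-fold and did not pass.

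The SKA complex, which keeps NDC80 on moving microtubules, had 0 of 3 members past the F test. Ska3 read 9.69 and 8.95 in XII-I, 8.73 and 8.73 in II-IV, 8.90 and 8.65 in IV-VI, 8.81 and 8.71 in VII, 8.94 and 9.04 in VIII-IX, and 8.67 and 8.48 in IX-XI. Only XII-I sample 1 stood clear of the other arrays. Ska3 was 0.74 ± 0.20 log2 higher in XII-I than in IX-XI (adjusted p = 0.047 in limma). Ska1 and Ska2 differed from the other groups in XII-I by 0.23 ± 0.11 and -0.30 ± 0.10 log2 and did not pass.

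By stage group, calls against the other 5 groups were found in XII-I, VIII-IX and IX-XI. In XII-I, 7 members rose (19.4%, against 7.51% of all genes) and 2 fell (5.56%, against 3.33%). The 7 were Cenpe, Cenpf, Cenpl, Ndc80, Ttk, Bub1b and Nuf2, and the 2 were Nsl1 and Mad2l1. Without the dimmest 30% of genes, 10 members rose and 2 fell. Of the 13962 genes kept, 11.5% rose, and 2402 passed in either direction. The median difference of the 36 genes in XII-I was 0.10 log2, with 21 above 0, and the median of all genes was 0.01 log2, with 53.4% above 0. 

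These XII-I calls needed both samples of the group. Without XII-I sample 1, 0 members and 0 of 19946 genes passed in limma, in a fit that leaves 1 array in XII-I and assumes that it varies like the other groups. Without XII-I sample 2, under the same assumption, 4 members were higher and 0 lower, but of the 7 genes only Ndc80 and Bub1b were among the 4, the others being Dsn1 and Ska3. The sizes moved less than the calls for the corona genes. Cenpe differed by 1.30 log2 without sample 1 (adjusted p = 0.089) and 1.18 without sample 2 (adjusted p = 0.054), and Cenpf by 0.81 (adjusted p = 0.11) and 0.88 (adjusted p = 0.060). Bub1b differed by 0.26 log2 without sample 1 and 0.71 without sample 2. Without IV-VI sample 1, 4 members were higher and 0 lower. Over the remaining leave-outs 5 to 8 members were higher, and the 2 lower calls became 0 in 6 of those 9, with 1 without II-IV sample 1, 6 without II-IV sample 2 and 2 without VIII-IX sample 2. Over all genes, the share called higher in XII-I was also below that of the full fit in every leave-out except II-IV sample 2. The median deviation of the 7 risen genes from their own means reached 0.74 log2 on the first XII-I array and 0.40 on the second, against 0.11 and 0.47 on II-IV samples 1 and 2. By this measure XII-I sample 2 lay below II-IV sample 2, the array it most resembled over all genes.

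**Figure D3:**
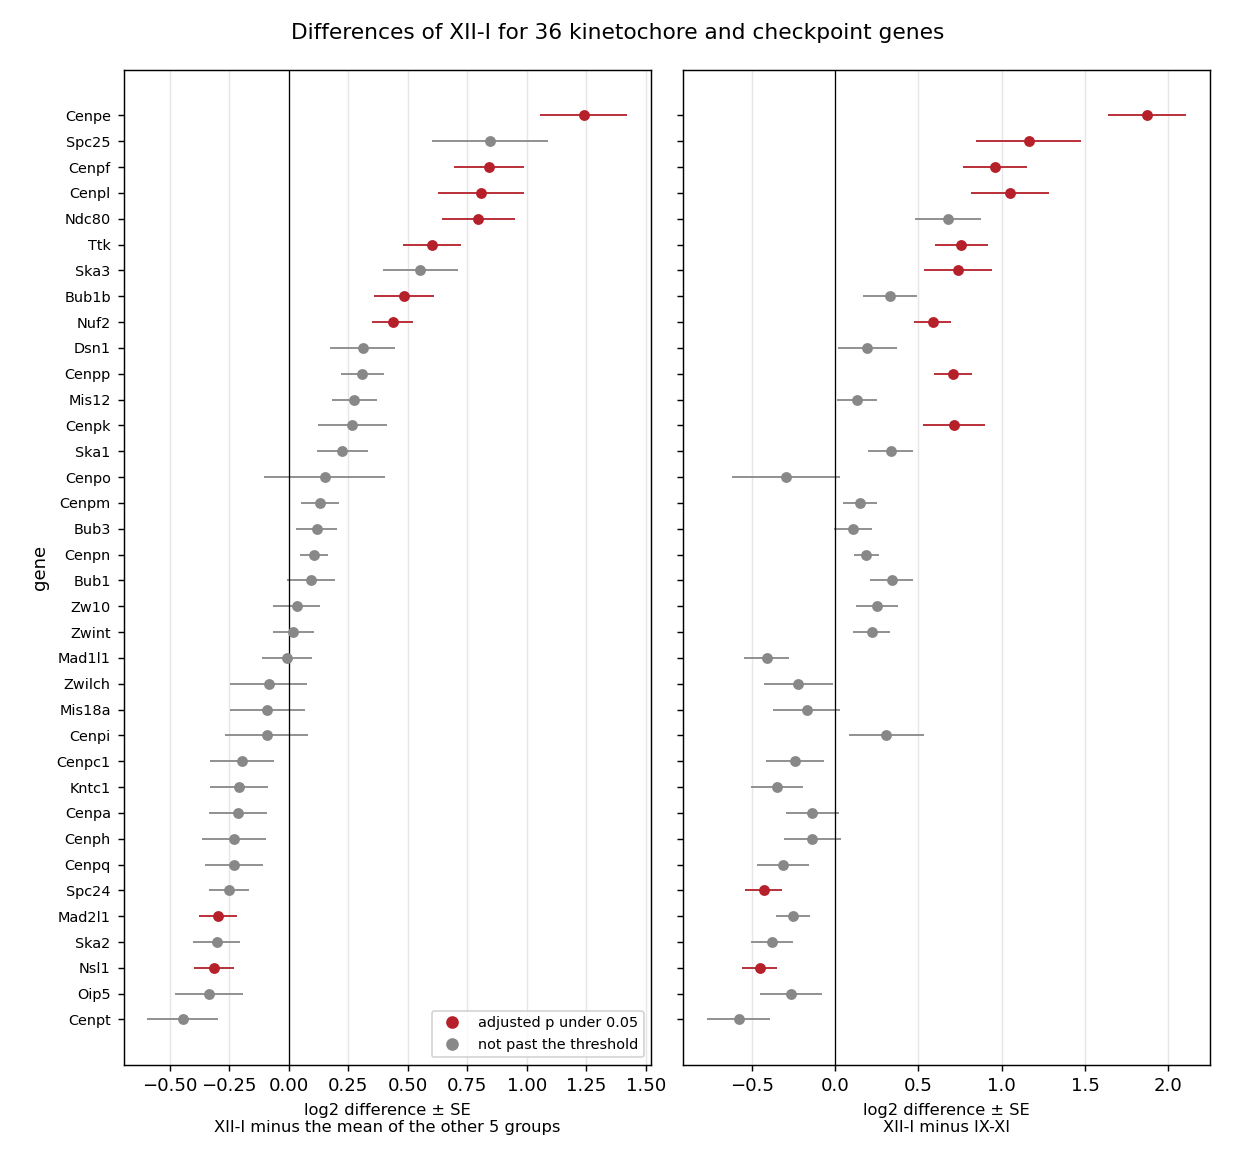
Log2 difference with its standard error for 36 genes, XII-I minus the mean of the other 5 groups on the left and XII-I minus IX-XI on the right, in the order of the left panel. Red points passed an adjusted p under 0.05, 7 higher and 2 lower on the left and 9 higher and 2 lower on the right, and the genes spread on both sides of 0.

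Round spermatid markers were low on the XII-I arrays, but not only there, and elongating spermatid markers did not pass in XII-I. The 8 round spermatid markers, all measured, had a median difference of -0.80 log2 in XII-I with 2 of 8 past the threshold and lower (3.33% of all genes were). The lowest mean fell in XII-I for 5 of them and in VIII-IX for 3. Their median deviation was -1.28 on the first XII-I array and -0.37 on the second. It was also -0.25 and -0.80 on VIII-IX samples 1 and 2, and 0.44 and -0.28 on II-IV samples 1 and 2. The summed intensity of these markers was 15308 to 20877 in XII-I, 22169 to 33746 in II-IV, 34815 to 38051 in IV-VI, 34252 to 38343 in VII, 19436 to 25124 in VIII-IX and 25685 to 32159 in IX-XI. Of 8 elongating spermatid markers 0 passed in XII-I, with a median difference of 0.03 log2. Of 10 pachytene spermatocyte markers, 1 rose in XII-I (7.51% of all genes did), and their median difference there was 0.05 log2. Of 10 markers of undifferentiated and early spermatogonia, 1 rose in XII-I and 0 fell, with a median difference of -0.03 log2. Of 9 markers of differentiating spermatogonia and preleptotene cells, 0 rose and 1 fell, with a median of 0.04 log2. Of 4 blood markers only Alas2, an enzyme of red cell heme synthesis, was measured, and it rose in XII-I by 1.28 log2 (adjusted p = 0.029) with its highest mean in II-IV. The part of these markers in the XII-I differences was not tested.

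At the step to XII-I from IX-XI, 9 members rose (25%, against 7.33% of all genes) and 2 fell (5.56%, against 4.63%). The 9 were Cenpe, Spc25, Cenpl, Cenpf, Ttk, Ska3, Cenpk, Cenpp and Nuf2, and Nsl1 and Spc24 fell. XII-I samples are part of this step and of the comparison above, so the calls are not independent. The count of 9 was 3 when XII-I sample 1 or IX-XI sample 1 was left out and 0 when IX-XI sample 2 was. The 2 lower calls were 1 without either IV-VI or either VII sample, and 0 without XII-I sample 2 or either IX-XI array. IX-XI sample 2 also had the lowest Leydig cell markers of the arrays, with a median deviation of -0.80 log2 over 5 measured genes, against 0.02 on IX-XI sample 1.

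In VIII-IX, 5 members fell (4.31% of all genes fell) and 0 rose (3.53%; without adjustment, 10 of 36 members and 4968 of 19946 genes passed 0.05 in limma, in either direction). The 5 that fell were Cenpe, Cenpi, Cenpk, Cenpa and Zwint. The count of 5 was 2 without either VII sample, 1 without XII-I sample 2, II-IV sample 1, IV-VI sample 1, VIII-IX sample 2 or IX-XI sample 1, and 0 without IV-VI sample 2, VIII-IX sample 1 or IX-XI sample 2. In IX-XI, Cenpe and Cenpp fell (1.79% of all genes) and Mad1l1 rose (1.9%). The falls were lost without either IX-XI sample.

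In II-IV, IV-VI and VII, 0 members and 0 of all genes passed in limma against the other groups. At an unadjusted p under 0.05 there were 11 members in II-IV, 9 in IV-VI and 9 in VII, among 3430, 4060 and 3963 genes. Of the other neighbouring steps, that to VIII-IX from VII had 0 members called (2.27% of all genes rose and 1.66% fell) with 16 at an unadjusted p under 0.05, among 5048 genes. The other 4 steps had 0 members and 0 genes called. Unadjusted, 6 members among 1980 genes passed 0.05 at the step to II-IV, 5 among 1323 at the step to IV-VI, 1 among 1183 at the step to VII and 6 among 925 at the step to IX-XI.

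Over all 36 genes the median deviation was -0.0011 log2 on VII sample 1 and -0.14 on VII sample 2. For the 7 genes that rose in XII-I it was -0.37 and -0.41 on these arrays and -0.39 on IX-XI sample 2, but these genes were chosen for being lower outside XII-I, so their low values there are only described. Markers of somatic cells differed between the VII arrays: over 5 Leydig cell genes the median deviation was 0.08 on sample 1 and 0.71 on sample 2, over 9 Sertoli cell genes 0.01 and 0.48, and over 6 macrophage genes -0.21 and 0.54. Their part in the VII values was not tested.

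**Figure D4:**
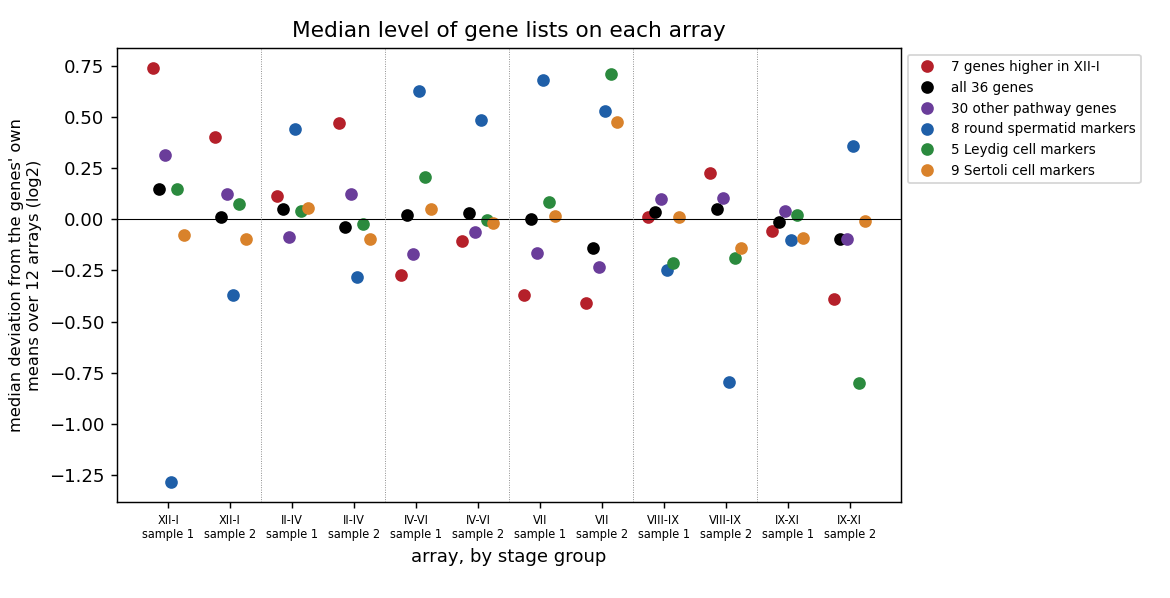
Median deviation (log2) of each gene list from its genes' own means on each of the 12 arrays; points are lists, offset sideways within an array. The 7 genes higher in XII-I reach 0.74 on XII-I sample 1 and -0.41 on VII sample 2, while all 36 genes stay between -0.14 and 0.15, round spermatid markers reach -1.28 on XII-I sample 1 and Leydig cell markers 0.71 on VII sample 2.

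Genes of the same machinery outside the 37 also held some with their highest mean in XII-I and some with it in VIII-IX. Of 31 other kinetochore, inner centromere and checkpoint genes, 30 were measured, and 12 of these (40%, against 19.9% of all genes) passed the F test. In XII-I 9 rose (7.51% of all genes did) and 0 fell (3.33%) against the other groups, 18 of 30 and 5332 of 19946 genes had an unadjusted p under 0.05 in limma, and the list had a median difference of 0.26 log2. Most or all of these 9 calls were lost without XII-I sample 1, XII-I sample 2, IV-VI sample 1 or IX-XI sample 2. Each of those fits leaves 1 array in a group. Most of the 12 F test calls were also lost in several leave-outs, among them those of either IV-VI sample. With arrays weighted in the fit, 1 of the 9, Incenp, was still higher (1.9% of all genes). The other settings that keep all 12 arrays had 7 to 9 higher. Incenp, the scaffold of the chromosomal passenger complex, read 10.60 and 10.40 in XII-I, 9.86 and 10.37 in II-IV, 9.46 and 9.82 in IV-VI, 9.15 and 9.09 in VII, 9.16 and 9.70 in VIII-IX, and 9.13 and 8.80 in IX-XI. Like Cenpe, it had both XII-I samples above all others and its lowest mean in IX-XI. Incenp was 1.53 ± 0.22 log2 higher in XII-I than in IX-XI (2.89-fold, adjusted p = 0.0085).

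Aurkb, the kinase of that complex in mitosis, ranged 3.23-fold, with 11.07 and 10.21 in XII-I, 8.98 and 8.93 in VII, and 9.99 and 10.48 in VIII-IX. Nek2, a centrosomal kinase that also acts at kinetochores, ranged 2.04-fold, and Bod1, a regulator of chromosome biorientation, 1.82-fold, both with their highest mean in XII-I. Birc5, the survivin subunit of the passenger complex, ranged 1.74-fold, also with its highest mean in XII-I. It read 10.74 and 10.27 in XII-I and 10.36 and 10.43 in VIII-IX, so XII-I sample 2 lay below both VIII-IX arrays.

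Clasp1, Knstrn and Kif2c, which act on the microtubule ends at kinetochores, had their highest mean in VIII-IX. Clasp1 read 11.22 and 10.86 in XII-I, 10.24 and 10.82 in II-IV, 10.07 and 9.95 in IV-VI, 10.57 and 10.54 in VII, 11.47 and 11.43 in VIII-IX, and 11.36 and 11.24 in IX-XI. Its 4 highest arrays were those of VIII-IX and IX-XI, and it rose in VIII-IX by 0.76 ± 0.14 log2 against the other groups (adjusted p = 0.019). Knstrn rose in VIII-IX by 0.51 log2 (adjusted p = 0.038) and Kif2c by 0.44 log2 (adjusted p = 0.045). All 3 also rose at the step to VIII-IX from VII, by 0.89, 0.78 and 0.75 log2.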

How the data were processed

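Per the submitters' processing notes, the authors made the deposited intensity values with RMA, which corrects background, normalizes the arrays to 1 distribution and summarizes each probe set. For RMA, a version was not given in the sources used here. Intensity values as deposited were linear, from 24.97 to 21760, and log2 was taken with nothing added. Changes are relative to the other transcripts of an array. One gene symbol was annotated to 21797 of 28853 probe sets, several to 1613 and none to 5443. The brightest single-symbol set was kept for the 999 genes with more than 1, leaving 19946 genes. Symbols were checked against RefSeq (GRCm38.p6), which changed 0. Promoters came from RefSeq.

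Means of the 6 groups were estimated from all 12 arrays in limma 3.58.1 (R 4.3.3, lmFit and eBayes, 6 residual degrees of freedom). Tests were the moderated F test, each group against the average of the remaining 5, and each group minus the one before it, with Benjamini-Hochberg adjustment over all genes at 0.05. The fit was tested on simulated data. Members, roles and lists were chosen with earlier results of these data known. Named in full are genes past the F test, those lower in XII-I, the widest in each role and, by range, up to 8 other pathway genes past the F test; Spc24, Bub1 and Bub1b were added after their values were seen. Array number limits precision. No value was dropped or imputed.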

Additional observations from a re-analysis of the deposited data

How the results depend on the processing

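The count of 12 members past the F test was 10 to 14 (17.9% to 29.6% of all genes tested, highest without the dimmest 30%) under further quantile normalization, without the dimmest 30% of genes, with log2(value + 50), with the mean of all probe sets, with array weights and with the replicate block. With the second samples of VIII-IX and IX-XI both left out it was 0 (19 of all genes passed), and so were the counts in XII-I (higher and lower), VIII-IX (lower), IX-XI (both directions) and at the step to XII-I (both directions). In that setting 1 member was highest in VII, and the member medians were 0.0099 in IV-VI and 0.043 in VIII-IX. With array weights XII-I had 3 higher and 0 lower, IV-VI 3 higher and 4 lower, IX-XI 2 higher and 5 lower, and VIII-IX 0 lower. Under further quantile normalization VIII-IX had 2 lower, the step to XII-I 4 lower, and 1 member was highest in VII. With log2(value + 50) VIII-IX had 2 lower. Without the dimmest 30% of genes 1 member fell at the step to VIII-IX. The cause of these moves was not tested.

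The sample numbers did not pair the samples: within-group differences correlated between groups at -0.35 to 0.54, over 0.1 in 7 of 15 pairs of groups. With the replicate block 12 members passed the F test, with Cenpa lost (adjusted p = 0.055) and Cenpo gained (adjusted p = 0.044). Then 1 was higher in II-IV and 1 higher in VIII-IX, and 8 were higher and 3 lower in XII-I.

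Leaving out 1 array at a time, members past the F test numbered 4 to 15. Higher and lower counts were 0 to 8 and 0 to 6 in XII-I, 0 to 3 and 0 to 1 in II-IV, 0 to 1 and 0 to 2 in IV-VI, 0 to 0 and 0 to 2 in VII, 0 to 3 and 0 to 5 in VIII-IX, and 0 to 2 and 0 to 3 in IX-XI. They were 0 to 8 and 0 to 3 at the step to XII-I, and 0 to 3 and 0 to 1 at the step to VIII-IX. Member medians were 0.04 to 0.16 in XII-I, -0.046 to 0.062 in II-IV, -0.0096 to 0.046 in IV-VI, -0.16 to 0.01 in VII, 0.057 to 0.087 in VIII-IX and -0.10 to -0.017 in IX-XI. Members highest in a group numbered 11 to 17 in XII-I, 3 to 7 in II-IV, 2 to 7 in IV-VI, 0 to 4 in VII, 3 to 12 in VIII-IX and 2 to 6 in IX-XI. Single members kept their side of the threshold in 587 F tests (79 lost, 18 gained) and 610 XII-I tests (59 lost, 15 gained), over all alternatives, and none of these reversed. With 2 arrays in a group, small changes cannot be resolved.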
